A study of Drosophila ananassae with 22 samples.

Results

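The core genes of the Notch pathway were followed through the embryonic development of *Drosophila ananassae*. Listed were 9 genes by their *D. melanogaster* identifiers: the receptor *Notch* (*N*, FBgn0004647), its ligands *Delta* (*Dl*, FBgn0000463) and *Serrate* (*Ser*, FBgn0004197), *neuralized* (*neur*, FBgn0002932), *fringe* (*fng*, FBgn0011591), *big brain* (*bib*, FBgn0000180), *Suppressor of Hairless* (*Su(H)*, FBgn0004837), *mastermind* (*mam*, FBgn0002643) and *Hairless* (*H*, FBgn0001169). The gene expression table, of 8758 genes, held 8 of them, and *H* was not analysed here. All 8 reached the minimum of 10 RPM (reads scaled to a common library total) at their highest time point, as did 7207 of the 8758 genes.

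Whole embryos of the strain In(3R)A, the reference genome strain of the species, with no treatment or mutation named in the labels, were collected from population cages in windows of 1 hr and aged, giving 22 time points from 0-1 hr to 21-22 hr after egg laying. Each time point was 1 RAMPAGE library, an assay in which cDNAs complete to the cap are sequenced, each read placing a transcription start site. The 7-8 hr library, with 454 reads in the gene table and 1 in these 8 genes, was left out. The other 21 libraries were scaled by the authors to 1211764 (19-20 hr) to 12595472 (16-17 hr) reads, so that 1 read was worth 0.825 RPM in the shallowest library and 0.0794 RPM in the deepest. There was no replicate of any time point. Intervals given with single levels therefore cover counting error only. Because a transcript yields 1 read end whatever its length, RPM was not divided by length, and levels of different genes are compared in RPM.

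In *D. melanogaster*, where the pathway has been worked out genetically, Delta and Serrate on one cell bind Notch on its neighbour, and the intracellular part of Notch is then cut free and enters the nucleus. There it joins the DNA-binding protein Su(H) and the coactivator Mastermind, which turns on target genes. Neuralized is a ubiquitin ligase that promotes endocytosis of the ligands in the signalling cell, Fringe adds sugars to Notch that favour Delta over Serrate, and Big brain is a channel-like membrane protein of the aquaporin family. Loss of most of these genes produces too many neural cells at the expense of epidermis, because cells of the early neuroectoderm no longer inhibit each other from becoming neuroblasts. The pathway acts again in later organs, among them the gut, trachea and muscle.

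The 8 genes fell into 2 kinds of time course. *Su(H)*, *N*, *Dl*, *bib* and *neur* were highest between 2-3 hr and 4-5 hr and lower in the second part of embryogenesis, though *Su(H)* never fell below 49.6 RPM. *Ser*, *fng* and *mam* were near their lowest in the first hours and highest at 10-11 hr. The highest time point lay from 3 to 7 hr in 4 of the 8 genes, against 22.4% of the 7207 genes, from 8 to 12 hr in 3, against 11.3%, from 0 to 3 hr in 1, against 37%, and from 12 to 22 hr in 0, against 29.2%. The plot of levels by hour shows the 8 courses.

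**Figure D1:**
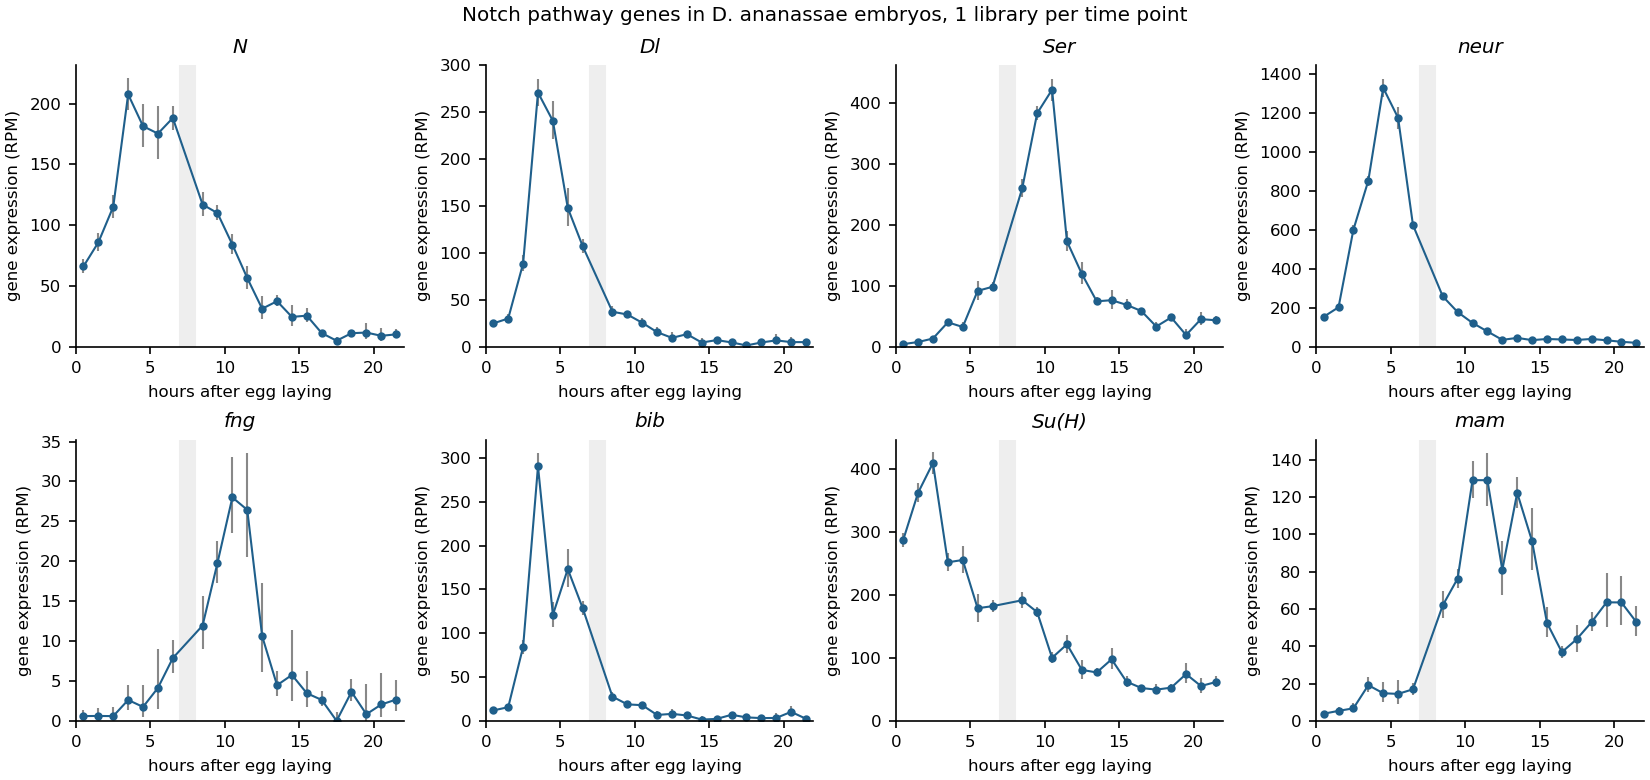
Gene expression in RPM (y axis, linear, a scale of its own in each panel) against hours after egg laying (x axis) for the 8 Notch pathway genes. Points are single libraries with 95% exact Poisson intervals of the reads, and the grey band is the left-out 7-8 hr time point. *N*, *Dl*, *neur*, *bib* and *Su(H)* were highest at or before 4-5 hr, and *Ser*, *fng* and *mam* at 10-11 hr.

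The receptor *N* was present from the first hour. Its levels were 66.1, 85.8, 115, 208, 181, 175 and 188 RPM over the time points from 0-1 to 6-7 hr. From 8-9 to 13-14 hr they were 117, 109.9, 84.0, 56.4, 31.2 and 37.4 RPM, and from 14-15 to 21-22 hr 24.4, 25.5, 11.1, 4.83, 11.0, 11.6, 8.87 and 10.1 RPM. *N* thus stood on a plateau from 3-4 to 6-7 hr, with neighbouring intervals that overlap from 4-5 hr on (for example 164 to 199.8 RPM at 4-5 hr and 155 to 198 RPM at 5-6 hr). The step into this plateau, 3-4 hr against 2-3 hr, was 1.80 times (95% interval 1.63 to 2.00). Its highest level was 43.0 times its lowest, at 17-18 hr. That lowest level rests on 16 reads (2.76 to 7.85 RPM) of 1 library, and without this library the ratio was 23.4.

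*N* had 1 main TSS cluster (TSC, the group of neighbouring start sites that makes up 1 promoter) at scaffold_12613:394473-394632 (- strand, 160 bp wide) in the FlyBase *D. ananassae* assembly r1.3 (positions counted from 1), which carried 95.6% of its reads. The other 4 TSCs assigned to it lay 38706 to 40204 bp downstream and held 0.381 to 2.31% of the reads each. Whether a TSC lies in an exon, intron or UTR was not looked up for any gene, since no annotation of this assembly was used here.

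The ligand *Dl* was low in the first 2 libraries and then rose steeply. It stood at 24.8, 29.9, 88.6, 271, 241, 148 and 107 RPM from 0-1 to 6-7 hr. From 8-9 to 13-14 hr its levels were 37.1, 34.2, 25.4, 15.4, 9.29 and 13.2 RPM, and from 14-15 to 21-22 hr 4.31, 6.92, 4.45, 1.21, 4.38, 6.60, 4.78 and 4.74 RPM. The 2 large steps were 2-3 hr against 1-2 hr, 2.96 times (95% interval 2.50 to 3.50), and 3-4 hr against 2-3 hr, 3.06 times (95% interval 2.75 to 3.40). *Dl* was already down at 8-9 hr, 0.347 times (95% interval 0.294 to 0.410) its level at 6-7 hr. Its TSC at scaffold_13340:15235873-15236006 (+ strand, 134 bp wide) carried 98.9% of its reads.

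The other ligand, *Ser*, had a later course. From 0-1 to 6-7 hr it stood at 4.05, 7.48, 13.2, 39.8, 32.2, 91.5 and 98.2 RPM. It reached 260.3, 383, 422, 173, 119 and 74.3 RPM over the 6 time points from 8-9 to 13-14 hr, and 76.2, 68.5, 58.4, 32.9, 47.8, 19.0, 45.1 and 43.2 RPM from 14-15 to 21-22 hr. *Ser* was highest, at 422 RPM (404 to 440.1), after *Dl* had dropped to 25.4 RPM (21.2 to 30.2). Its highest level was 104 times that at 0-1 hr. Of its reads, 95.9% were accounted for by 1 TSC, at scaffold_12911:3956396-3956500 (- strand, 105 bp wide).

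The ratio of the 2 ligands within a library does not depend on scaling. Reads of *Ser* made up 14.0% of the *Dl* and *Ser* reads at 0-1 hr (95% Wilson interval 10.2 to 19.0%, 34 of 242 reads) and 11.8% at 4-5 hr (9.51 to 14.6%). The share was 38.2% at 5-6 hr (33.3 to 43.4%), 47.8% at 6-7 hr (45.3 to 50.3%) and 87.5% at 8-9 hr (85.6 to 89.2%). At 6-7 hr the 2 ligands were thus within counting error of equal, and *Ser* led from 8-9 hr to the end. It held 94.3% at 10-11 hr (93.3 to 95.2%) and between 74.2% (19-20 hr, 23 of 31 reads) and 96.5% (17-18 hr, 109 of 113 reads) afterwards. These are sums over whole embryos, in which a change in the number of expressing cells and a change in RNA per cell cannot be told apart.

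**Figure D2:**
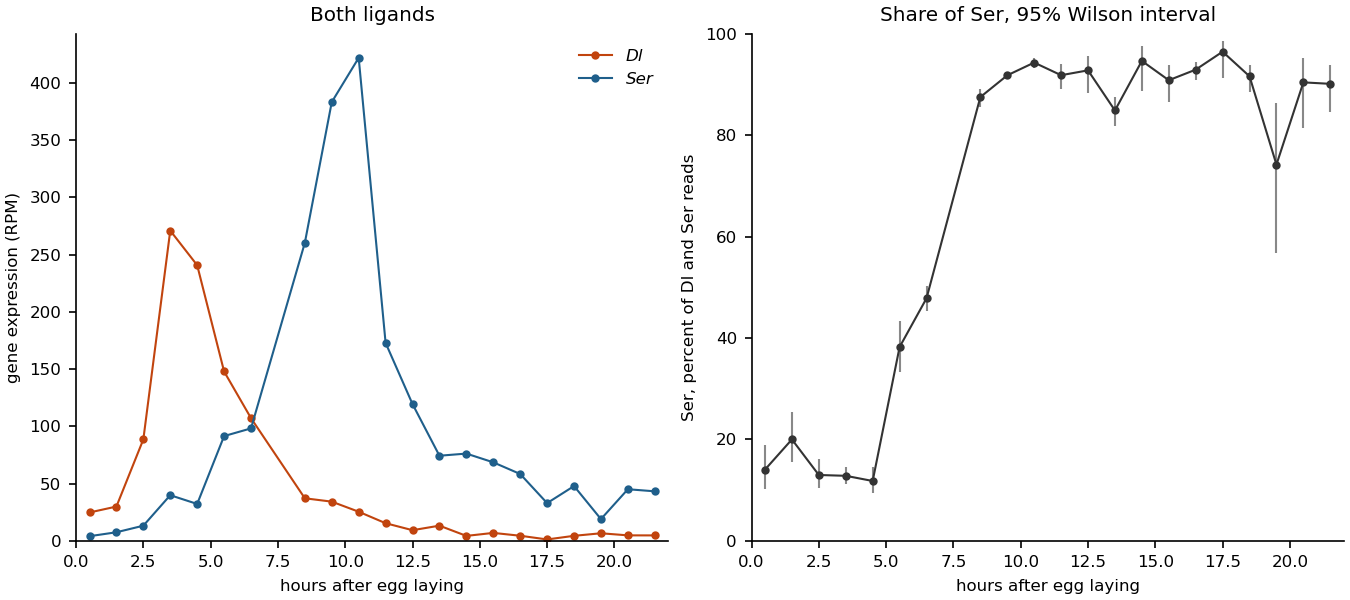
Left, expression of the ligands *Dl* and *Ser* in RPM (y axis) against hours after egg laying (x axis). Right, reads of *Ser* as a percent of the *Dl* and *Ser* reads of the same library with 95% Wilson intervals, 11.8% at 4-5 hr, 47.8% at 6-7 hr and 87.5% at 8-9 hr.

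*neur*, which encodes the ubiquitin ligase that acts on the ligands, reached the highest level of the 8 genes. Its levels were 153, 202, 600.3, 851, 1328, 1174 and 624 RPM from 0-1 to 6-7 hr. They were 258, 177, 121, 77.7, 34.5 and 44.6 RPM from 8-9 to 13-14 hr and 33.1, 39.0, 36.4, 33.8, 39.3, 32.2, 24.6 and 19.2 RPM from 14-15 to 21-22 hr. The largest step of *neur* was 2-3 hr against 1-2 hr, 2.98 times (95% interval 2.79 to 3.17), and its top at 4-5 hr (1281 to 1376 RPM) lay above its neighbour at 5-6 hr (1119 to 1231 RPM). Within the 21 time points, 85.3% of its summed RPM fell between 1 and 9 hr.

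*fng*, the gene of the glycosyltransferase, was the least abundant by highest level. It stood at 0.595, 0.611, 0.592, 2.62, 1.74, 4.13 and 7.86 RPM from 0-1 to 6-7 hr, where the first 3 values rest on 5, 4 and 3 reads. From 8-9 to 13-14 hr it stood at 11.9, 19.8, 28.0, 26.4, 10.6 and 4.46 RPM and from 14-15 to 21-22 hr at 5.75, 3.46, 2.62, 0, 3.63, 0.825, 2.05 and 2.66 RPM. *fng* thus peaked together with *Ser*, the ligand whose signalling Fringe reduces in *D. melanogaster*. The levels at 10-11 hr (23.6 to 33.0 RPM) and 11-12 hr (20.5 to 33.6 RPM) did not differ beyond counting error. No *fng* read was found at 17-18 hr, where 3 reads would have made 0.906 RPM and the exact Poisson interval reaches 1.11 RPM. All its reads came from the TSC at scaffold_13337:8741794-8741976 (+ strand, 183 bp wide).

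*bib*, the gene of the channel-like protein, had a narrow early peak. It stood at 11.9, 15.6, 84.4, 291, 121, 173 and 129 RPM from 0-1 to 6-7 hr, at 27.6, 18.8, 17.9, 6.71, 7.96 and 6.13 RPM from 8-9 to 13-14 hr and at 1.44, 2.20, 6.91, 3.93, 3.13, 3.30, 10.2 and 2.37 RPM from 14-15 to 21-22 hr. The step at 2-3 hr over 1-2 hr was 5.42 times (95% interval 4.37 to 6.72), followed by 3.44 times (95% interval 3.09 to 3.83) at 3-4 hr. The single library of 4-5 hr was lower than both its neighbours, 0.416 times (95% interval 0.366 to 0.473) the level at 3-4 hr, a difference beyond counting error for which no replicate exists. Of the 8 genes *bib* had the largest share of its summed RPM within 8 hr, 89.4% between 2 and 10 hr.

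*Su(H)*, the DNA-binding factor of the pathway, was the most abundant of the 8 at 0-1 hr and the least variable. It stood at 287, 362, 409.5, 252, 255, 179 and 182 RPM from 0-1 to 6-7 hr. Its levels were 191, 173, 100.1, 122, 80.9 and 76.8 RPM from 8-9 to 13-14 hr and 97.7, 62.3, 52.1, 49.6, 52.7, 74.3, 55.3 and 61.6 RPM from 14-15 to 21-22 hr. *Su(H)* was thus read at every time point, and its highest level, at 2-3 hr, was 8.26 times its lowest, at 17-18 hr. Its TSC at scaffold_12916:821829-821960 (- strand, 132 bp wide) carried 99.9% of its reads.

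*mam*, the gene of the coactivator that works with Su(H), was nearly the reverse. It stood at 3.81, 5.35, 6.71, 19.1, 14.8, 14.4 and 16.9 RPM from 0-1 to 6-7 hr. Its levels were 61.9, 76.3, 129, 129, 80.9 and 122 RPM from 8-9 to 13-14 hr and 96.3, 52.5, 36.8, 43.8, 53.0, 63.5, 63.5 and 53.0 RPM from 14-15 to 21-22 hr. The level at 8-9 hr was 3.66 times (95% interval 2.97 to 4.51) that at 6-7 hr, and those at 10-11 hr (119 to 139 RPM) and 11-12 hr (115 to 144 RPM) did not differ beyond counting error. From 8-9 hr on *mam* was lowest at 16-17 hr, at 36.8 RPM, where *Ser* stood at 58.4 RPM. Over the same libraries *Ser* was lowest at 19-20 hr (19.0 RPM, 23 reads) and *fng* at 17-18 hr (0 RPM). At 0-1 hr there were 287 RPM of *Su(H)* (2412 reads) and 3.81 RPM of *mam* (32 reads), whereas at 21-22 hr the values were 61.6 (53.5 to 70.6) and 53.0 RPM (45.5 to 61.4), with overlapping intervals.

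Ordered by level, the 0-1 hr library ran *Su(H)* (287 RPM), *neur* (153), *N* (66.1), *Dl* (24.8), *bib* (11.9), *Ser* (4.05), *mam* (3.81) and *fng* (0.595). In that order only the neighbours *Ser* (2.80 to 5.66 RPM) and *mam* (2.61 to 5.38 RPM) had overlapping intervals. By highest level the order was *neur* (1328 RPM), *Ser* (422), *Su(H)* (409.5), *bib* (291), *Dl* (271), *N* (208), *mam* (129) and *fng* (28.0). The neighbours *Ser* and *Su(H)* (392 to 428 RPM), and *bib* (276 to 306 RPM) and *Dl* (257 to 286 RPM), overlapped.

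**Figure D3:**
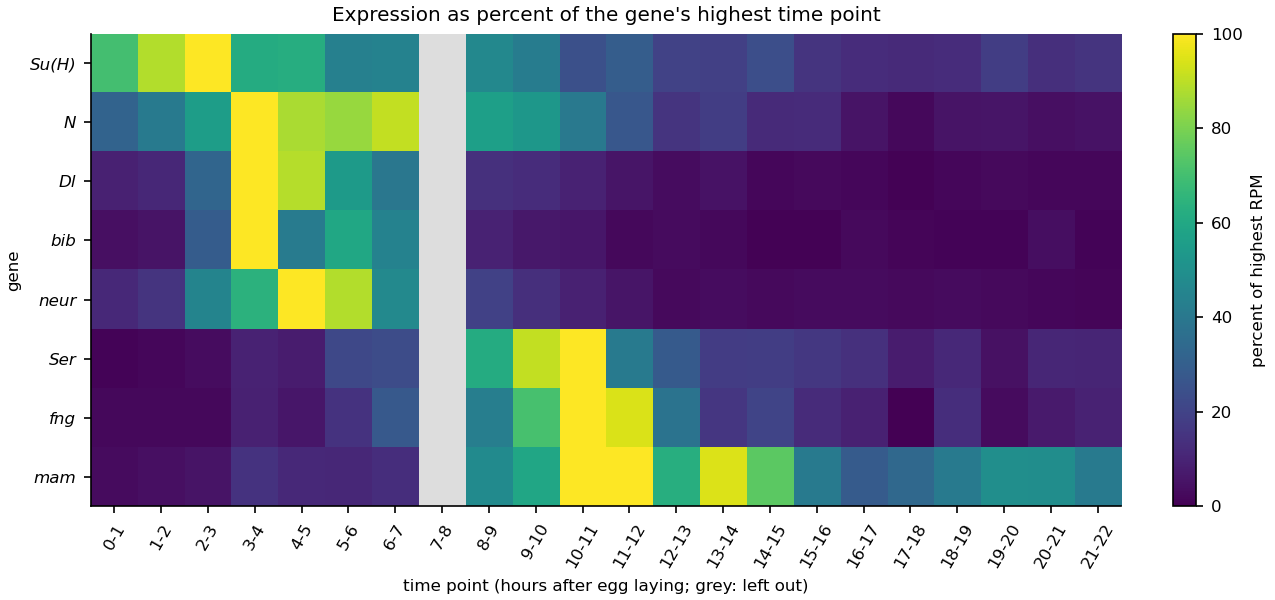
Expression of each gene (rows) at each time point (columns, hours after egg laying) as a percent of its own highest RPM, from dark (0) to yellow (100). Grey marks the left-out 7-8 hr time point; *Su(H)*, *N*, *Dl*, *bib* and *neur* are brightest in the first 5 hr, and *Ser*, *fng* and *mam* at 10-11 hr.

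The question of which courses change with time was asked of all genes together, with a smooth curve of time fitted by limma to log2(RPM + 1). All 8 genes changed (Benjamini-Hochberg adjusted p from 5.07e-14 for *neur* to 4.88e-08 for *fng*), but so did 92.9% of the 7207 genes tested. *neur* ranked 82 of 7207 by the strength of its change, *N* 487 and *fng* 2030. The study classed TSCs by set thresholds, which were applied here to the summed level of a gene. A gene with at least 60% of its expression within 8 hr was counted as developmentally regulated and one that varied less than 5-fold as housekeeping. All 8 were developmentally regulated, against 44.7% of all genes, and 0 were housekeeping, against 12.6%. *Su(H)* lay just inside the threshold, with 60.7% of its expression between 0 and 8 hr, followed by *mam* with 65.5% between 8 and 16 hr. With TMM scaling, a normalization that assumes most genes unchanged, *Su(H)* (54.8%) and *mam* (59.6%) fell outside it. *Su(H)* also fell outside it when any 1 of 6 libraries, each of those from 1-2 to 6-7 hr, was left out (54.9 to 58.3%, lowest without 2-3 hr). Leaving out a library of a window takes its level from both the window and the total, which lowers that window's share by construction. These losses therefore show only that *Su(H)* lay close to the threshold.

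To give directions, the time points were joined into blocks of 0-3 hr (3 libraries, the time of maternal RNA and of the first zygotic transcription), 3-10 hr (6 libraries), 10-16 hr (6) and 16-22 hr (6). Neighbouring contrasts share the libraries of the block between them. Since the libraries of a block differ in age, the SD given after each mean (n = 3 or 6) holds developmental change as well as error. Of the 24 combinations of gene and contrast, 14 passed the adjusted p of 0.05, 4 of them higher and 10 lower in the later block. Of all 7207 genes, 18.9, 25.6 and 8.48% passed as higher in the 3 contrasts in time order, and 17.7, 29.9 and 30.4% as lower.

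Between 3-10 and 0-3 hr the late genes rose and *Su(H)* fell. Of the 8 genes, 3 were higher, against 18.9% of all genes, and 1 was lower, against 17.7%. *Ser* averaged 151 ± 140.4 RPM over 3-10 hr and 8.25 ± 4.63 RPM over 0-3 hr, a log2 difference of 3.61 (SE 0.66, limma adjusted p = 1.77e-04). *mam* averaged 33.9 ± 27.7 RPM over 3-10 hr and 5.29 ± 1.45 RPM over 0-3 hr (log2 difference 2.15, SE 0.45, adjusted p = 7.70e-04), and *fng* 8.01 ± 6.90 RPM over 3-10 hr and 0.599 ± 0.0102 RPM over 0-3 hr (log2 difference 2.14, SE 0.64, adjusted p = 0.0115). For these 3 genes every library of 3-10 hr lay above every library of 0-3 hr, as it did for 17% of all genes. For *fng* this separation was within counting error. Its lowest library of 3-10 hr (4-5 hr, 4 reads, 0.474 to 4.46 RPM) overlapped its highest of 0-3 hr (1-2 hr, 4 reads, 0.166 to 1.56 RPM). The SD of *fng* over 0-3 hr, from 5, 4 and 3 reads, is smaller than the counting error of each value. *Su(H)* averaged 205 ± 37.9 RPM over 3-10 hr and 353 ± 61.7 RPM over 0-3 hr, without overlap, as 16.2% of all genes in this direction (log2 difference -0.78, SE 0.26, adjusted p = 0.0199). The call of *Su(H)* was lost with TMM scaling (adjusted p = 0.0753), without the 1-2 hr library (0.0725) and without the 2-3 hr library (0.0791).

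The 4 genes with a peak at 3-4 or 4-5 hr did not pass in this contrast. Their log2 differences were 0.86 for *N* (95% interval 0.11 to 1.62), 1.35 for *Dl* (0.08 to 2.63), 1.13 for *neur* (-0.05 to 2.30) and 1.74 for *bib* (0.16 to 3.31), with adjusted p between 0.0675 and 0.124. In each the 3-10 hr block held both the peak and the lower levels of 8-9 and 9-10 hr. For *N* these lower levels, 117 and 109.9 RPM, were still above its 0-3 hr mean of 89.0 RPM. *Dl*, *neur* and *bib* were already at 88.6, 600.3 and 84.4 RPM at 2-3 hr. Why the 4 genes did not pass was not tested. All 4 passed without the 9-10 hr library (adjusted p = 0.0486 for *N*, 0.0307 for *Dl*, 0.0313 for *neur* and 0.0205 for *bib*), *Dl* (0.0342), *neur* (0.0341) and *bib* (0.0171) without 2-3 hr, *Dl* (0.0377) and *bib* (0.0380) without 8-9 hr, and *N* (0.0409) without 10-11 hr. *N* also passed with TMM (0.0170). edgeR's test of the recovered reads, which uses TMM scaling too, passed *N* (0.0202) and *Dl* (0.0385).

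Between 10-16 and 3-10 hr the 5 early genes fell, against 29.9% of all genes, and 1 rose, against 25.6%. *neur* averaged 58.4 ± 35.0 RPM over 10-16 hr and 735 ± 471 RPM over 3-10 hr, a log2 difference of -3.46 (SE 0.46, limma adjusted p = 4.52e-06). *Dl* averaged 12.4 ± 7.54 RPM over 10-16 hr and 139.6 ± 100.2 RPM over 3-10 hr (log2 difference -3.17, SE 0.50, adjusted p = 2.68e-05). For *bib* the averages were 7.05 ± 5.90 RPM over 10-16 hr and 127 ± 101 RPM over 3-10 hr (log2 difference -3.76, SE 0.62, adjusted p = 3.96e-05). The log2 differences of the receptor and its DNA-binding partner were nearer to 0. *N* had a log2 difference of -2.0 (-2.62 to -1.38, adjusted p = 1.38e-05) and *Su(H)* of -1.20 (-1.63 to -0.76, adjusted p = 7.31e-05). In none of the 5 did a library of 10-16 hr reach the lowest of 3-10 hr, a separation found in 11.8% of all genes, though for *bib* the gap was small, 17.9 RPM at most over 10-16 hr and 18.8 RPM at least over 3-10 hr. *mam* rose, with 102 ± 31.0 RPM over 10-16 hr and 33.9 ± 27.7 RPM over 3-10 hr and overlapping libraries (log2 difference 1.84, SE 0.37, adjusted p = 3.05e-04). *Ser* (0.25, -0.86 to 1.36) and *fng* (0.61, -0.47 to 1.69), whose peaks straddle the boundary at 10 hr, did not pass.

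Between 16-22 and 10-16 hr 4 genes fell, against 30.4% of all genes, and 0 rose, against 8.48% (0 also at an unadjusted p under 0.05 in limma, and 0 with edgeR). *N* averaged 9.58 ± 2.51 RPM over 16-22 hr and 43.1 ± 23.2 RPM over 10-16 hr, without overlap (log2 difference -1.96, SE 0.30, limma adjusted p = 5.97e-05). *fng* averaged 1.96 ± 1.33 RPM over 16-22 hr and 13.1 ± 11.2 RPM over 10-16 hr (log2 difference -2.02, SE 0.52, adjusted p = 0.00501). *Ser* averaged 41.1 ± 13.6 RPM over 16-22 hr and 155 ± 136 RPM over 10-16 hr (log2 difference -1.63, SE 0.54, adjusted p = 0.0206); *N* and *Ser* were the 2 genes whose blocks did not overlap, against 11.9% of all genes. *Su(H)* averaged 57.6 ± 9.15 RPM over 16-22 hr and 89.9 ± 20.9 RPM over 10-16 hr (log2 difference -0.61, SE 0.21, adjusted p = 0.0249). The values for *Dl* (-1.23, -2.27 to -0.18), *neur* (-0.76, -1.72 to 0.20), *mam* (-0.91, -1.67 to -0.14) and *bib* (-0.24, -1.53 to 1.04) did not pass. In this contrast the scaling matters: the median log2 difference of all genes was -0.49 in RPM and -0.06 with TMM, and of the genes called, 21.8% were higher in RPM and 56.0% with TMM. Relative to that shift the fall of *Ser* (adjusted p = 0.123 with TMM, 0.0937 with edgeR) and of *Su(H)* (0.684 with TMM, 0.633 with edgeR) was not called, while *N* and *fng* stayed called. In RPM itself, with 1 library left out, *Ser* lost its call without 10-11 hr (0.0631) and *Su(H)* without 10-11 hr (0.0526) or 11-12 hr (0.0683), whereas *Dl* gained one without any of 6 libraries (0.0294 to 0.0489) and *mam* without any of 3 (0.0249 to 0.0409).

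The medians of the 8 log2 differences, beside those of all 7207 genes, were 1.55 against 0.05 for 3-10 over 0-3 hr, -1.60 against -0.20 for 10-16 over 3-10 hr, and -1.07 against -0.49 for 16-22 over 10-16 hr. TMM scaling moved the median of all genes up by 0.16, 0.15 and 0.43 in the 3 contrasts. It turned no direction of a gene that passed.

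**Figure D4:**
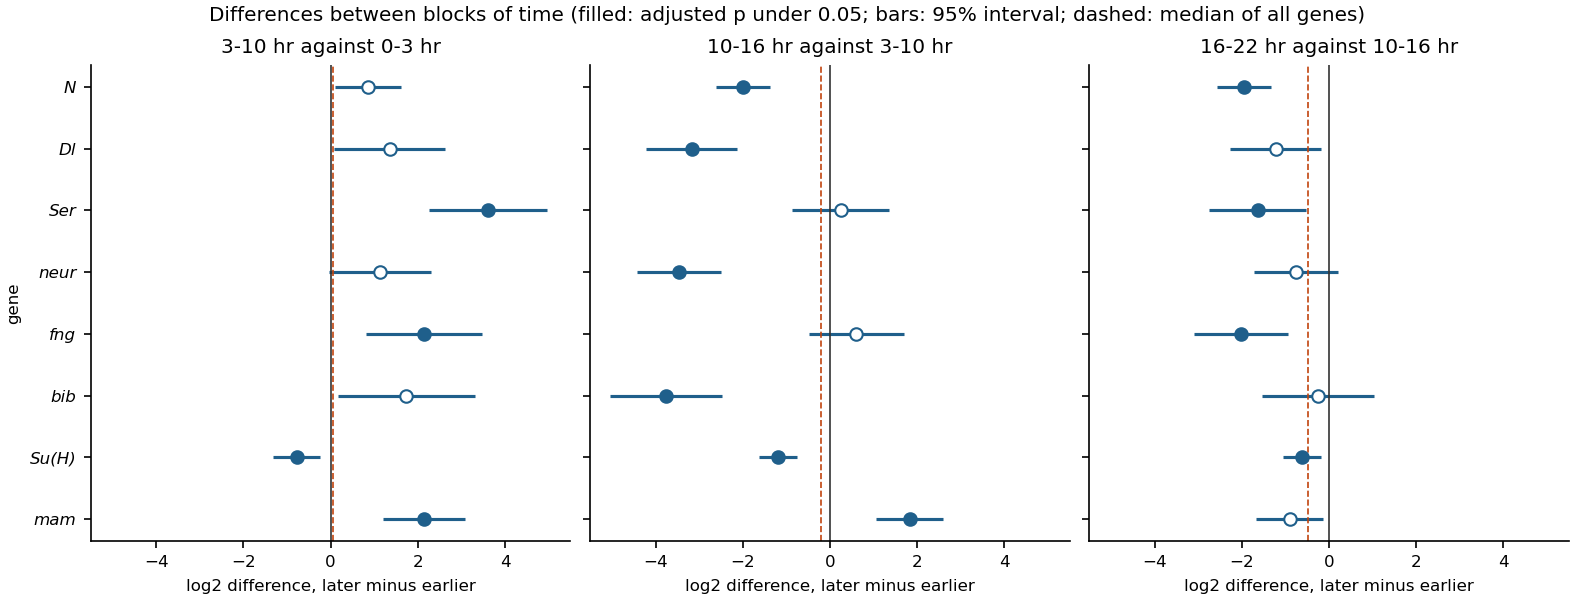
Log2 difference of each gene (rows) between 2 blocks of time, later minus earlier (x axis), with its 95% interval from limma; filled points passed an adjusted p of 0.05. The dashed line is the median of all 7207 genes, -0.20 in the middle panel, where *N*, *Dl*, *neur*, *bib* and *Su(H)* fell and *mam* rose.

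For 3 of the 8 genes a second promoter reached 10 RPM at some time point, so that the ratio of the 2 most read TSCs could be followed within each library. The ratio changed with time in all 3 genes, as it did in 69.4% of the 1345 such pairs (limma, adjusted p = 2.42e-07 for *neur*, 2.59e-08 for *mam* and 9.47e-10 for *bib*). The second TSC of *bib* passed 10 RPM only at 20-21 hr (10.4 RPM, 15 reads), where its ratio was highest, so that its pair entered the test through that library; fitted without 20-21 hr the adjusted p was 7.22e-10. For *mam* too the second TSC passed 10 RPM in a single library, 11-12 hr (26 reads), through which its pair entered the test. Fitted without 11-12 hr the limma adjusted p of the *mam* pair was 1.53e-08. In these fits the pairs of *bib* and *mam* were kept, although without the library named neither would have met the minimum of 10 RPM. At a minimum of 25 RPM the pairs of *bib* and *mam* were not tested, and that of *neur* stayed called (4.67e-07).

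*neur* used its main TSC, at scaffold_13340:14695822-14696010 (+ strand, 189 bp wide), for 90.5% of its reads, and a narrow one 5506 bp upstream, at scaffold_13340:14690388-14690431 (+ strand, 44 bp wide), for 8.57%. The upstream TSC held 52.3% of the reads of the pair at 0-1 hr (49.5 to 55.0%, 664 of 1270 reads) and 39.9% at 1-2 hr (37.3 to 42.6%). At 2-3 hr it held 4.57% (3.88 to 5.37%) and at 4-5 hr 0.760% (0.507 to 1.14%). The RNA of *neur* in the first 2 libraries thus began at both sites in comparable amounts, while nearly all of that at its peak began at the downstream one. From 8-9 hr on, the upstream share was between 7.29 and 43.6%, the highest resting on 17 of 39 reads at 19-20 hr.

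*bib* used the TSC at scaffold_12916:13817246-13817315 (+ strand, 70 bp wide) for 87.2% of its TSC reads and one 476 bp downstream, at scaffold_12916:13817753-13817761 (+ strand, 9 bp wide), for 8.90%. The downstream TSC held 46.2% of the pair at 0-1 hr (36.5 to 56.3%), 2.07% at the 3-4 hr peak (1.43 to 2.97%) and 23.7% at 10-11 hr (15.5 to 34.4%). From 12-13 hr on it held 45.5% (17-18 hr, 5 of 11 reads) to 100% (14-15 hr, 2 of 2 reads, 19-20 hr, 4 of 4, and 20-21 hr, 15 of 15). In the deepest library, 16-17 hr, it held 89.5% (81.3 to 94.4%, 77 of 86 reads). The early peak of *bib* was thus a peak of the upstream TSC, and at 16-17 hr most of the reads of the pair came from the narrow one. At 0-1, 3-4, 10-11 and 16-17 hr the narrow TSC stood at 5.27, 5.76, 3.65 and 6.20 RPM. The upstream one stood at 6.12, 273, 11.8 and 0.725 RPM. Another TSC of *bib*, 9075 bp downstream of the most read one, held 3.91% of its TSC reads. At 3-4 hr this TSC reached 14.2 RPM (69 reads), against 28 reads of the narrow one.

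*mam* used the TSC at scaffold_13266:5981706-5981785 (- strand, 80 bp wide) for 91.9% of its TSC reads, and one 25378 bp downstream, at scaffold_13266:5956267-5956467 (- strand, 201 bp wide), for 6.48%. The downstream TSC held 66.7% at 0-1 hr (45.4 to 82.8%, 14 of 21 reads), 29.5% at 6-7 hr (21.6 to 38.8%) and 2.80% at 10-11 hr (1.78 to 4.38%). The late rise of *mam* was thus carried by the upstream TSC. For *neur* the TSC reads equalled the gene's reads in every library; for *bib* and *mam* they made up 98.6 and 98.2%, so that the link of gene to TSCs rests there on nearness of the counts.

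**Figure D5:**
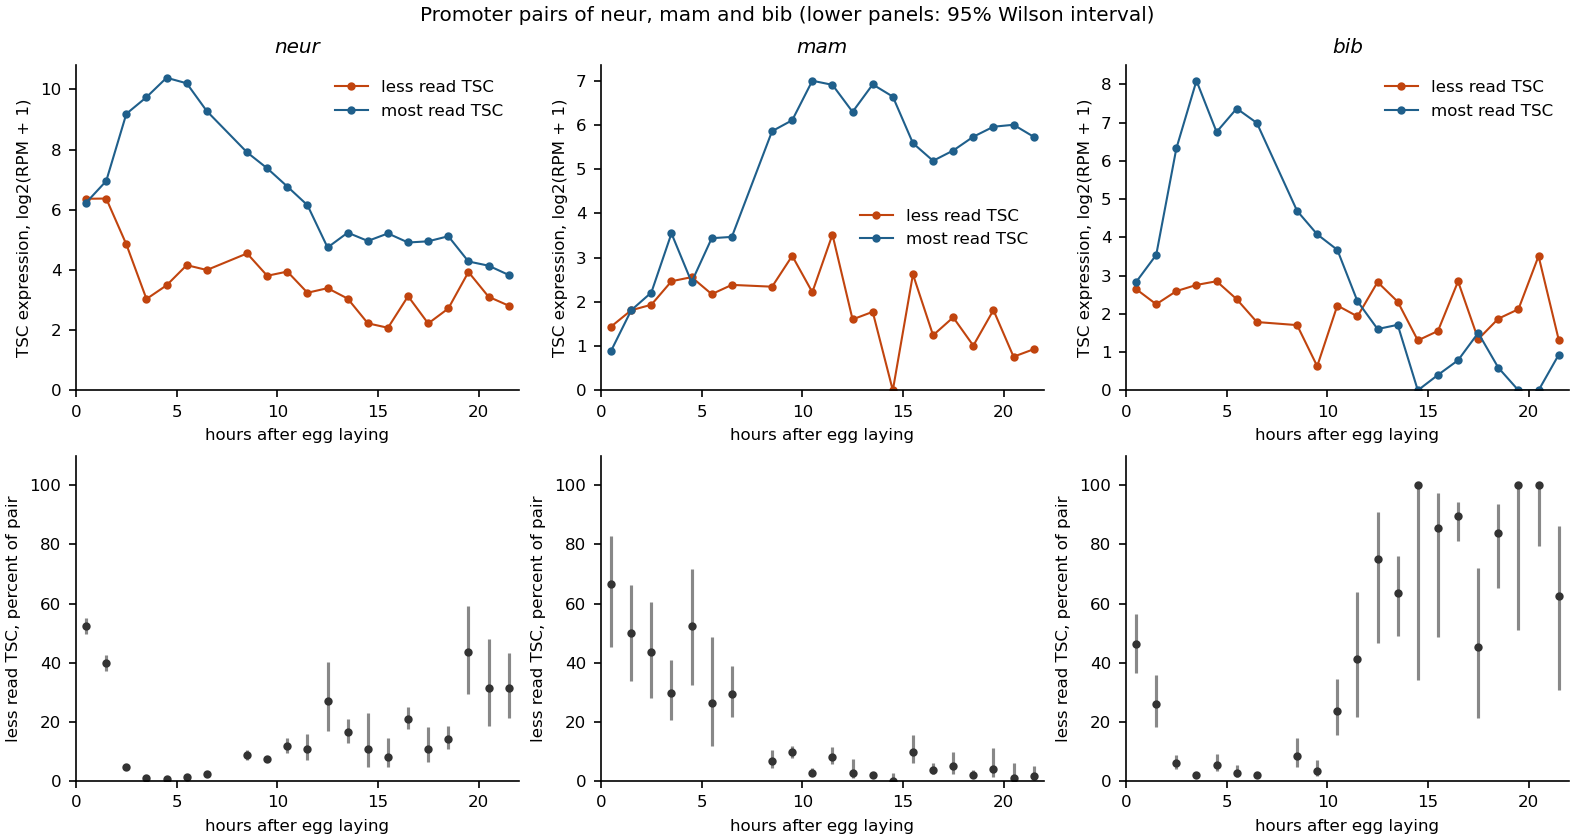
Upper panels, expression of the 2 most read TSCs of *neur*, *mam* and *bib* on the log2(RPM + 1) scale (y axis) against hours after egg laying. Lower panels, the less read TSC as a percent of the reads of both, with 95% Wilson intervals; for *neur* it held 52.3% at 0-1 hr and 0.760% at 4-5 hr, for *bib* 2.07% at 3-4 hr and 89.5% at 16-17 hr.

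Likeness of the courses was measured as Pearson's r of log2(RPM + 1) over the 21 time points. These points share libraries, depth and the general course of development, so that r is a description and carries no p. Over the 28 pairs of the 8 genes r ran from -0.71 (*Su(H)* and *mam*) to 0.96 (*Dl* and *neur*), with a median of 0.23, and 10 pairs were above 0.8. Within the 5 genes with a top before 7 hr the 10 values ran from 0.72 to 0.96, and within the 3 genes with a top at 10-11 hr from 0.62 to 0.90 (*Ser* and *fng*). Across the 2 sets the 15 values ran from -0.71 to 0.31. Pairing genes by their tops favours high values within a set.

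The ligand *Dl* and the ligase *neur* were close neighbours by this measure. Among 7206 other genes *neur* was number 6 in likeness to *Dl*, and *Dl* number 5 in likeness to *neur*. Of the 7199 genes outside the list, the number with r above 0.9 was 372 for *N*, 391 for *Su(H)*, 243 for *Dl*, 157 for *neur*, 150 for *mam*, 44 for *Ser*, 32 for *bib* and 5 for *fng*. The gene most like *N* outside the pathway list was FBgn0031822 (r = 0.99), and that most like *fng* was FBgn0031313 (r = 0.92), identifiers for which no gene name was used here.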

How the data were processed

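The data were 21 of 22 RAMPAGE libraries of staged *D. ananassae* embryos, 1 for each hour; 7-8 hr was left out, following the study's methods. The authors mapped reads with STAR to the FlyBase reference, joined start sites into TSCs over all time points at once, discarded those on rDNA repeats and attributed the rest to genes. The deposited gene and TSC tables hold RPM, scaled by the authors per time point; the 2 tables use slightly different totals. The deposited peak list gives TSC positions and a score whose meaning the authors do not state, and the score was not used. The deposited smoothed and aligned table of Z-scores was not used.

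RPM values were divided by the value of 1 read in their column, and 100% of the values of the 21 time points came out whole within 0.1 read. Genes were tested by limma on log2(RPM + 1) with a minimum of 10 RPM at the highest time point: a natural spline (4 degrees of freedom), and contrasts between 4 blocks in 1 fit, all with Benjamini-Hochberg adjustment at 0.05 over 7207 genes. Fold changes of low values are understated on this scale. Promoter pairs were tested by the same spline on the difference between the 2 most read TSCs, where both reached 10 RPM. Poisson and Wilson intervals are at 95% and cover counting error only. Since no time point has a replicate, p-values measure scatter about a smooth course or within a block. The spline, block and pair fits were run on simulated reads with known changes.

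Genes were matched to *D. ananassae* TSCs by equal reads in every library: 5 of the 8 were equal to the sum of 1 gene's TSCs, and 3 (*Ser*, *mam*, *bib*) were matched to the nearest. Of all genes, 82.7% equalled such a sum. The genes named are all listed members, their TSCs with at least 10% of a gene's reads or in a tested pair, and, for likeness, the closest genes outside the list. Beyond this rule, the smaller TSCs of *N* and another TSC of *bib* are also described. The members and lists were chosen with earlier results of these data known. A list of other pathway genes and stage markers was not used here, since no table paired their identifiers with genes. Alternatives were a pseudocount of 0.1 RPM, minimums of none and 25 RPM, TMM scaling, edgeR's quasi-likelihood test on recovered reads, splines of 3 and 6 degrees of freedom, the 7-8 hr library included, a running mean over 3 time points for classes, and each time point left out. The edgeR test was itself scaled by TMM, so the TMM and edgeR alternatives are not independent in scaling. Software versions were limma 3.58.1 and edgeR 4.0.16 in R 4.3.3, and scipy 1.17.1, pandas 2.3.3, numpy 2.4.6 and matplotlib 3.10.9 in Python 3.11.15.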

Additional observations from a re-analysis of the deposited data

How the results depend on the processing

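No paired analysis was possible because libraries were single at every hour. Depth limits *fng*, *bib* and the late shares of TSCs, which rest on few reads. Within a block age cannot be separated from error, since every library has its own age and no replicate. All 8 genes changed with time whichever time point was left out. The 3 promoter pairs stayed called too, but pairs were not chosen anew when a library was left out. The second TSCs of *bib* and *mam* each passed 10 RPM in a single library. Without that library they reached at most 6.23 RPM (*bib*) and 7.22 RPM (*mam*), so that neither pair would have been tested. For these pairs the fit without that library cannot show that the call holds under the minimum. With 7-8 hr included, a library of 454 reads, 3233 genes changed with time (6697 without it), 588, 1722 and 591 genes differed in the 3 contrasts in time order (2639, 3999 and 2799 without it), and the calls among the 8 genes came to 3, against 14; in addition *Ser* lost its change with time (adjusted p = 0.0539). In the contrast of 16-22 and 10-16 hr, TMM scaling called 1780 genes and edgeR 1563. At a minimum of 25 RPM, 506 promoter pairs changed with time, against 933 of the pairs at 10 RPM, and fewer pairs were tested, without those of *bib* and *mam*. TMM scaling lost 3 and gained 1 of the 24 calls among the 8 genes, and edgeR lost 2 and gained 2; a pseudocount of 0.1 RPM and other minimums changed none, and no alternative reversed a call.

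Over the time points left out in turn, 6548 to 6725 genes changed with time and 881 to 956 promoter pairs did. The contrasts in time order called 1892 to 2733, 3653 to 4163 and 2210 to 3205 genes, and the calls among the 8 genes ranged from 13 to 20, the highest without 9-10 hr. Of the 8 genes 7 or 8 were developmentally regulated, the one lost being *Su(H)*.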
